A study of Mus musculus with 4 samples.

Results

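The regulators of G-protein signaling (RGS) described here are the 9 genes Rgs1, Rgs2, Rgs3, Rgs4, Rgs5, Rgs10, Rgs16, Rgs17 and Rgs19, chosen by symbol from the 32285 genes of the count tables. All 9 were found. They were followed in 4 single-cell RNA libraries from the proximal part of the lower incisor of mice at postnatal day 15, of which 2 were wild type (WT) and 2 were Din-KO. In Din-KO mice a gene-trap allele from a targeted ES cell clone had been converted by germline Cre, which removed exon 2 of Din (4930453N24Rik) and left a LacZ reporter under the Din promoter. Neither group received a treatment. The strain and the number of mice behind each library were not given in the sources used here, so the tests measure only the spread between libraries.

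A heterotrimeric G protein is switched on when a receptor makes its alpha subunit exchange GDP for GTP, and it is switched off when the alpha subunit hydrolyses that GTP. RGS proteins bind the active alpha subunit and speed up this hydrolysis, so they shorten the signal of receptors for chemokines, lipids, hormones and neurotransmitters. Many members are small proteins of the R4 family, and single members have long been used as marks of particular cells, such as Rgs5 for pericytes and Rgs1 for activated lymphocytes.

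After the filters on cells, 11310 cells remained, with 3903 and 1560 in the WT libraries and 4575 and 1272 in the Din-KO libraries (replicates 1 and 2 in this order, as everywhere below). The deposited tables held 32198098 to 54348039 unique molecular identifiers (UMIs, each standing for 1 captured RNA molecule) per library, and any 2 libraries shared 0 to 4 cell barcodes. Replicate 2 of both genotypes was smaller and its mesenchyme held fewer dental pulp-like cells. Cells with a Y-linked UMI and at most 1 Xist UMI made up 38.9% and 36.8% of the Din-KO libraries and 0% of the WT libraries, so sex and genotype cannot be told apart except in cells with Xist. Din itself was at 33.1 and 24.6 CPM (counts of a gene's UMIs scaled to the same total in every sum) in WT and 17.3 and 21.0 in Din-KO; in the annotated transcript with 3 exons the last exon is not exon 2, so these 3′ tags do not check the deletion there, and the sources do not say by which transcript the exon is numbered.

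Of the 9 genes, 5 lie on chromosome 1 (GRCm38, GENCODE vM21). Rgs2 is at chr1:143999338-144004161 and Rgs1 at chr1:144242296-144249242, both on the minus strand. Rgs16 is at chr1:153740349-153745468 on the plus strand. Rgs5, at chr1:169655501-169695813 on the plus strand, and Rgs4, at chr1:169741477-169747642 on the minus strand, point towards each other with 45.7 kb between them. The other members are Rgs3 (chr4:62559847-62704001, plus strand), Rgs10 (chr7:128373621-128418758, minus strand), Rgs17 (chr10:5825663-5922400, minus strand) and Rgs19 (chr2:181688419-181693977, minus strand). Rgs3 is annotated with 17 transcripts from 16 start sites, and the counts do not separate them.

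The stretch from 45 to 16 bases before the RefSeq start site was read for the 8 members with an entry (GRCm38.p6). Rgs1, also on chromosome 1, had no entry and was not read. The search, on the sense strand only, took 4 motifs chosen after the sequences had been seen. Which members hold a motif was thus set by that choice and tests nothing. Among 32851 promoters, TATAAA was found in this window in 2.14%, and TATATA was found in 1.05%. TTAAAA was found in 1.18% of them, and the last motif, ATAAAA, which can overlap the first, in 1.98%. The matches are in capitals.
Rgs2: tatgccgccgcccgccTTAAAAgcccgcgg
Rgs16: gccccgccccacggggATAAAAgccttagt
Rgs5: ctgtgagagagcttgTATATAttcctcaaa
Rgs4: gtgcgtggctgagcTATAAAAgagacccca
In the order printed, the windows are chr1:144004165-144004194 (minus), chr1:153740308-153740337 (plus), chr1:169655456-169655485 (plus) and chr1:169747658-169747687 (minus). Any of the 4 motifs was held by 5.14% of the promoters. None was found in the entries of Rgs3, Rgs10, Rgs17 and Rgs19.

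Cells were clustered without RGS genes and the clusters were named by marker genes. All markers of its own list were detected in each of the classes compared below. Detected means any UMI of the marker in the whole class, a low bar that does not test the names. The members fell into different compartments of the incisor. Rgs3 lay mostly in mesenchyme-like cells, which held 84.7% of its UMIs and were 61.9% of all cells. Perivascular-like cells also held more of its UMIs (2.60%) than their share of the cells (2.08%). Rgs5 was concentrated in perivascular-like cells, which held 61.5% of its UMIs and 2.08% of the cells. Macrophage-like cells, 12.2% of the cells, held 73.2% of the Rgs10 UMIs and 68.0% of the Rgs1 UMIs. Rgs2 was spread, with 32.3% of its UMIs in mesenchyme-like and 29.1% in macrophage-like cells.

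**Figure D1:**
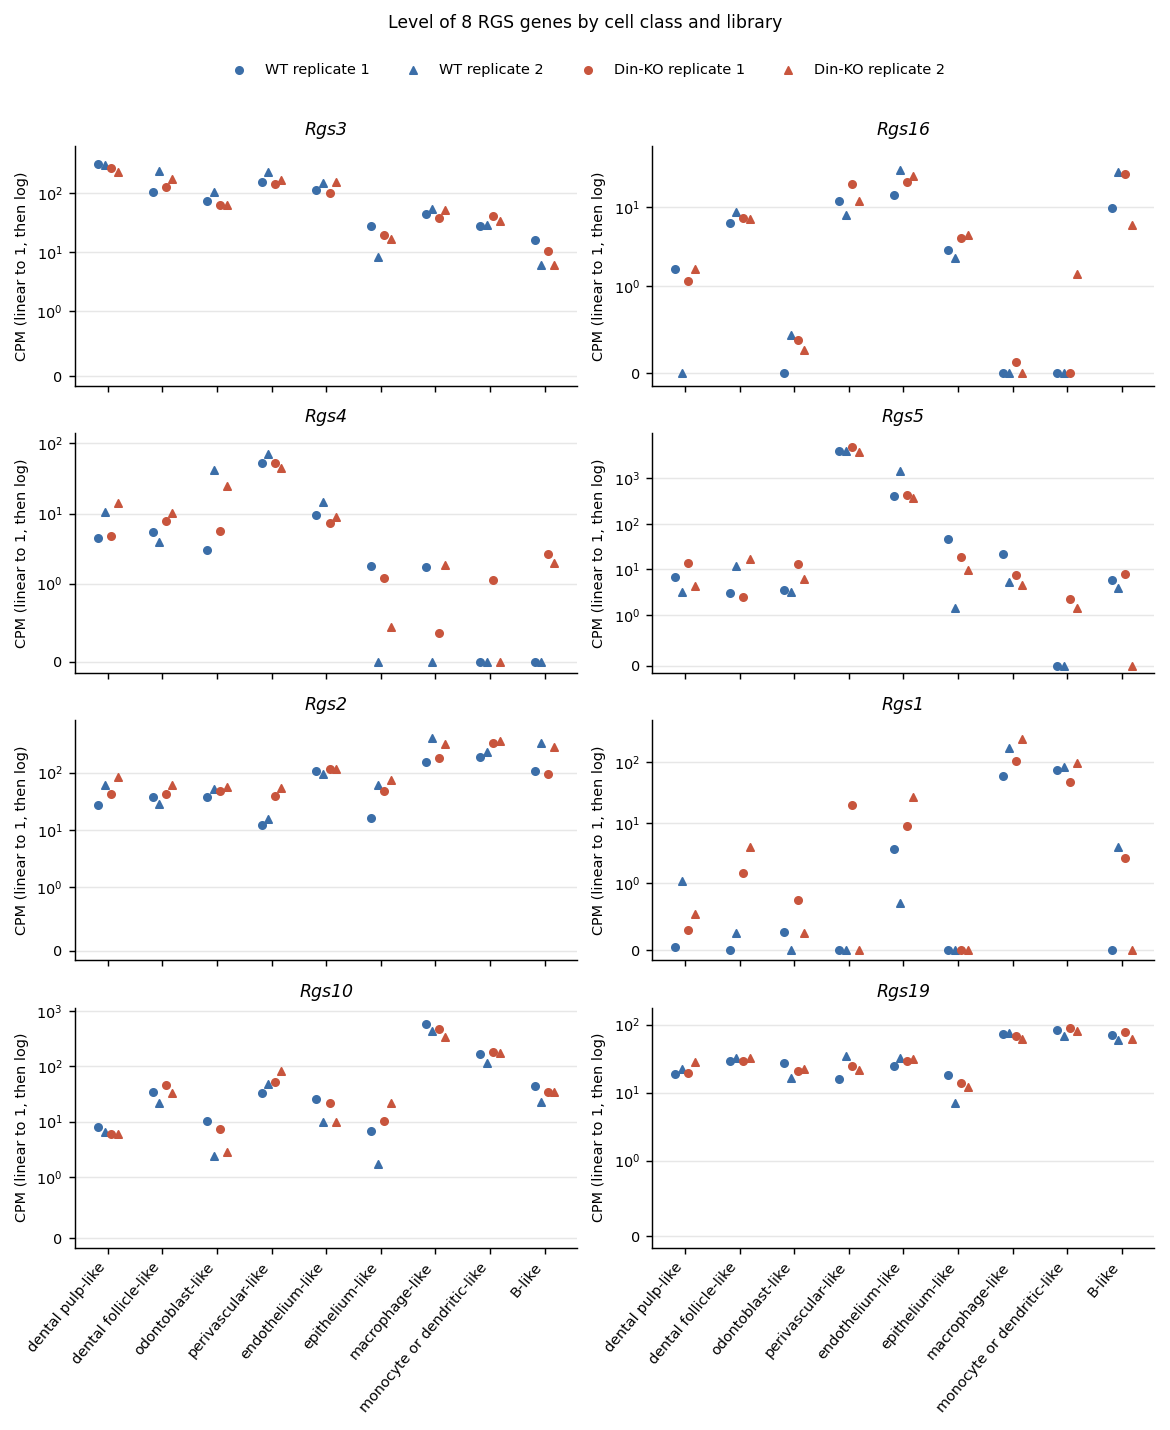
Level of 8 RGS genes (CPM of UMIs summed within a class; axis linear up to 1, then logarithmic) in 9 cell classes. Each point is 1 library, circles for replicate 1 and triangles for replicate 2, blue for WT and red for Din-KO; Rgs5 stands highest in perivascular-like cells (3710 to 4863 CPM) and Rgs10 in macrophage-like cells (343 to 575 CPM), while the WT and Din-KO points mostly lie close together.

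Rgs3, an R4-family member with long and short protein forms, was present throughout the mesenchyme. Its mean level was 190 ± 38.9 CPM in mesenchyme-like, 168 ± 36.6 in perivascular-like and 126 ± 26.6 in endothelium-like cells (SD, n = 4 libraries), and each of these ranges overlapped the next. Among the 7 classes with at least 20 cells in every library, the next, macrophage-like cells, stood apart at 46.3 ± 6.79 CPM, and B-like cells were lowest at 9.50 ± 4.65. Glia-like cells (39.2 to 95.9 CPM) and T or NK-like cells (44.5 to 86.6 CPM) had too few cells to be ranked. Against mesenchyme-like cells, Rgs3 was lower in epithelium-like (log2 fold change -3.11, SE 0.23), macrophage-like (-1.86, SE 0.21) and B-like cells (-4.26, SE 0.30), by the quasi-likelihood test of edgeR with p-values adjusted after Benjamini and Hochberg (adjusted p = 5.26e-11, 4.64e-08 and 1.72e-11). In these contrasts 23%, 33.1% and 36% of all genes tested were called lower. Rgs3 was also called lower in monocyte or dendritic-like (-2.30) and endothelium-like cells (-0.68), where 34.1% and 27.2% of genes were. The endothelium-like call was not kept under every alternative.

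Within the mesenchyme, Rgs3 was highest in dental pulp-like cells. Their level was 309 and 298 CPM in WT and 265 and 220 CPM in Din-KO. Dental follicle-like cells held 102 and 230 CPM in WT and 123 and 168 CPM in Din-KO. Odontoblast-like cells held 71.2 and 104 CPM in WT and 61.6 and 62.5 CPM in Din-KO. By cells, 48.5% to 86.8% of the odontoblast-like class was a cluster led by Tac1 and Smpd3, whose top 10 genes hold Dlk1 and Fgf3 but not Dspp, Dmp1 or Bglap; the clusters led by Bglap and by Dmp1 were the rest. In every library the pulp was above the follicle and the follicle above the odontoblasts. Rgs3 was lower in follicle-like than in pulp-like cells by -0.85 (SE 0.19, edgeR adjusted p = 0.00495) and lower in odontoblast-like than in pulp-like cells by -1.67 (SE 0.20, edgeR adjusted p = 6.11e-05), both as log2 fold changes. It was also lower in odontoblast-like than in follicle-like cells (-0.83, edgeR adjusted p = 0.00505). Of all genes tested, 19.9%, 24.7% and 24% were called lower in these 3 contrasts.

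The pulp itself was not uniform for Rgs3. The Cldn10 and Ifitm1 cluster held 377 and 426 CPM in WT and 435 and 487 in Din-KO, both Din-KO values above both WT values, as in 10.9% of genes with at least 20 UMIs there. The Slc20a2 and Pdlim3 cluster held 429 and 568 CPM in WT and 376 and 350 in Din-KO, with 4 and 8 cells behind the replicate 2 values. The Smoc2 cluster, by contrast, held 68.8 and 138 CPM in WT and 68.0 and 101 in Din-KO, within the range of the odontoblast clusters. Between these, the Vcan and Rspo4 cluster held 237 and 240 CPM in WT and 182 and 151 in Din-KO, both Din-KO values below both WT values, as in 14.4% of genes. In the follicle, the Sfrp2 and Pcp4 cluster ranged from 128 to 309 CPM and the Bmp3 and Dkk2 cluster from 52.7 to 165. Cycling cells marked by Dlk1 and Fgf3 were lowest on average, at 37.7 to 47.3 CPM.

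**Figure D2:**
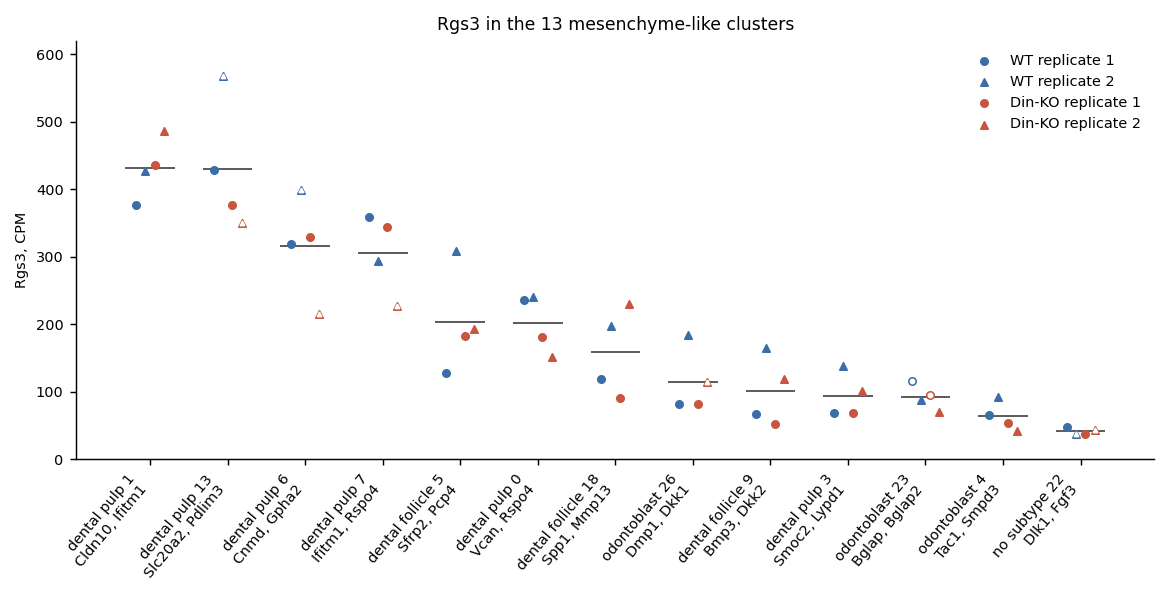
Rgs3 level (CPM) in the 13 mesenchyme-like clusters, ordered by the mean of the 4 libraries (grey line); each point is 1 library and open points rest on under 20 cells. The clusters run from the Cldn10 cluster of the pulp (377 to 487 CPM) down to the cycling Dlk1 cluster (37.7 to 47.3 CPM), and the genotypes overlap in most of them.

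Comparing Din-KO with WT, Rgs3 was lower in both Din-KO libraries in all mesenchyme-like cells together, in pulp-like and in odontoblast-like cells, but none of these differences passed the test. In mesenchyme-like cells the level was 232 and 199 CPM in WT and 190 and 138 CPM in Din-KO. The groups did not overlap there, nor in the pulp or the odontoblasts, where the values given above place each Din-KO library below each WT library. The same pattern, both Din-KO libraries below both WT libraries, was met by 6.42% of all genes tested in mesenchyme-like, 12.4% in pulp-like and 7.31% in odontoblast-like cells. The log2 fold change was -0.41 (SE 0.24) in mesenchyme-like, -0.32 (SE 0.25) in pulp-like and -0.52 (SE 0.29) in odontoblast-like cells, each with an edgeR adjusted p of 1.00. With cells that held Xist and no Y-linked UMI it was -0.32, -0.30 and -0.50. Single libraries weighed on it: without Din-KO replicate 2 it was -0.21 in mesenchyme-like and -0.14 in pulp-like cells, without Din-KO replicate 1 it was -0.66 and -0.51, and in odontoblast-like cells it ran from -0.80, when WT replicate 1 was left out, to -0.18, when WT replicate 2 was. Within the odontoblast-like class the genotypes were apart in the Tac1 and Smpd3 cluster, at 65.8 and 93.1 CPM in WT and 53.8 and 42.5 in Din-KO, as in 13.4% of genes, and overlapped in the Bglap and Dmp1 clusters. In follicle-like cells the genotypes overlapped (-0.25, SE 0.41, edgeR adjusted p = 1.00), and the difference between the follicle and pulp effects was 0.17 (SE 0.45, edgeR adjusted p = 1.00).

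The replicates differed in size and, in the follicle, in direction. Between libraries of the same replicate number, the log2 ratio of Din-KO to WT in pulp-like cells was -0.22 in replicate 1 (95% interval -0.28 to -0.16) and -0.44 in replicate 2 (-0.61 to -0.26). In follicle-like cells it was 0.27 (0.09 to 0.44) and -0.45 (-0.57 to -0.34), so the 2 replicates went opposite ways. In odontoblast-like cells it was -0.21 (-0.45 to 0.03) and -0.73 (-0.96 to -0.51). These intervals cover counting error only. Over clusters, 20 cluster and replicate pairs had at least 20 cells on both sides. Rgs3 was lower in Din-KO in 15 and higher in 5, with the interval below 0 in 5 and above 0 in 2. All these pairs come from the same 4 libraries, so they are not replicates of the genotype. The same tally was not made for all genes.

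**Figure D3:**
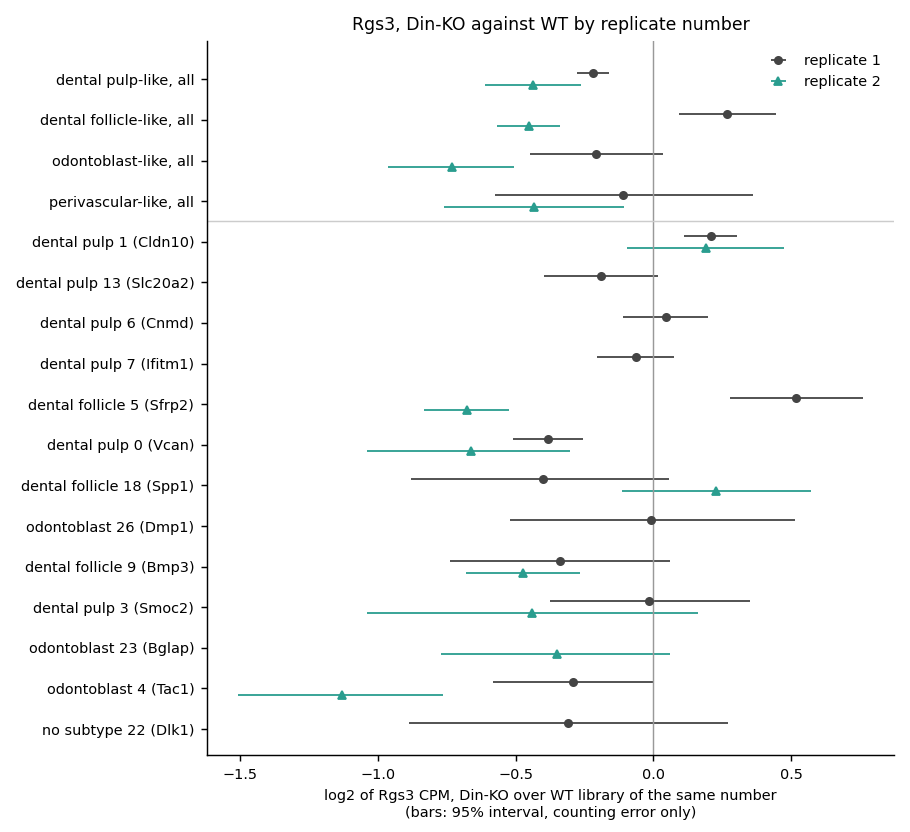
Log2 ratio of the Rgs3 level in Din-KO to that in the WT library of the same number, for 4 classes (top) and the mesenchyme-like clusters with at least 20 cells on both sides; bars are 95% intervals for counting error only. The replicates lie on opposite sides of 0 in the dental follicle (0.27 and -0.45), and in the Cldn10 cluster both lie above 0 while in the Vcan cluster both lie below.

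The cluster makeup of the pulp differed between the WT and Din-KO libraries, but the shares were not tested. With 2 libraries against 2, values unrelated to genotype lie apart with a probability of 0.333. Sex differed between the groups as well. The Cldn10 cluster, rich in Rgs3, was 34.6% and 32.1% of pulp-like cells in WT and 19.5% and 14.9% in Din-KO. The Smoc2 cluster, poor in Rgs3, was 9.90% and 12.1% in WT and 25.0% and 30.9% in Din-KO. The Slc20a2 cluster, also rich in Rgs3, was 4.51% and 1.67% in WT and 6.57% and 4.57% in Din-KO, so Din-KO was narrowly the higher. These shares rest on 93 and 4 cells in WT and 148 and 8 in Din-KO. In the other pulp clusters the shares overlapped between the genotypes. For a fixed makeup, clusters were weighted by their share of the class UMIs, not of the cells. When every library was given the mean makeup of the 4 libraries, Rgs3 in pulp-like cells was 277 and 306 CPM in WT and 270 and 251 CPM in Din-KO. The replicate 2 values rest partly on few cells, 4 in WT and 8 in Din-KO in the Slc20a2 cluster and 10 and 9 in the Cnmd cluster. The log2 ratio of the means was then -0.16, against -0.32 as observed, and Din-KO still lay below WT, narrowly in replicate 1. In all mesenchyme-like cells it became -0.22, against -0.39, and WT replicate 1 (167 CPM) lay within the Din-KO range (167 to 174 CPM). In follicle-like cells it became -0.24, against -0.19, and in odontoblast-like cells -0.55, against -0.50. This fixed makeup was added after the data had been seen.

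Rgs5, which marks pericytes and vascular smooth muscle, had the most concentrated pattern. Perivascular-like cells held 4043 and 3867 CPM in WT and 4863 and 3710 CPM in Din-KO, and the genotypes overlapped. Its log2 fold change against mesenchyme-like cells was 8.53 (SE 0.62, edgeR adjusted p = 2.97e-10), in a contrast where 9.38% of genes were called higher and 6.78% lower. Within the class, 103 of 235 cells with at least 10 Rgs5 UMIs held 99.1% of them, and all 103 had at least 3 UMIs of the perivascular genes Myh11, Notch3, Kcnj8, Abcc9, Higd1b and Cspg4. The class also carried markers of the dental follicle, 8 of 8 detected with a summed level of 1357 to 2962 CPM. Din-KO differed from WT by 0.08 (SE 0.28, edgeR adjusted p = 1.00). In Din-KO, 1 cell held 878 of the 2987 Rgs5 UMIs of replicate 1 and 1 cell held 1124 of the 2788 of replicate 2. In WT the top cell held 201 of 2005 and 504 of 3925, so the Din-KO values rest more on single cells.

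Endothelium-like cells came second for Rgs5, with 415 and 1460 CPM in WT and 439 and 372 CPM in Din-KO. WT replicate 2 stood far above the other libraries. Here 47 of 751 cells held 97.7% of the Rgs5 UMIs, and 43 of the 47 also had at least 3 UMIs of the 6 perivascular genes, as had 53 of the other 704. The 47 cells had a median of 29457 UMIs, against 9058 in the class, and all of them had at least 3 UMIs of the endothelial markers. Of the 47, 36 lay in the cluster led by Gja4 and Cldn5. Without the cells with perivascular UMIs, Rgs5 was at 17.0 and 24.0 CPM in WT and 18.7 and 44.3 CPM in Din-KO. The log2 fold change against mesenchyme-like cells went from 5.79 (edgeR adjusted p = 3.3e-09) to 1.07 (edgeR adjusted p = 0.0723), which ended the call; 26.6% of genes were called higher in that contrast. The 6 genes and the limit of 3 UMIs were chosen after the values had been seen, so the fall came largely from that choice and tests nothing. The Din-KO difference in the full class was -1.17 (SE 0.52, edgeR adjusted p = 1.00), and without WT replicate 2 it was -0.045.

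**Figure D4:**
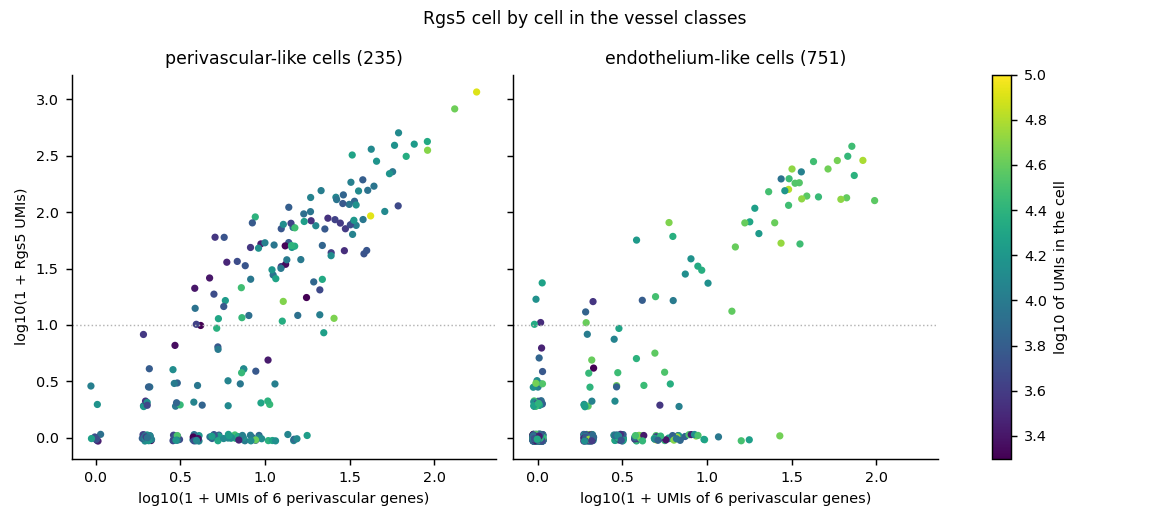
Rgs5 UMIs against the summed UMIs of 6 perivascular genes in each perivascular-like cell (left, 235 cells) and endothelium-like cell (right, 751 cells), both as log10 of 1 plus the count with slight jitter, coloured by the cell's total UMIs. Most cells near or above the dotted line (about 10 Rgs5 UMIs) also carry perivascular UMIs, including 43 of the 47 such endothelium-like cells.

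Rgs4, the neighbour of Rgs5 and a regulator of Gi and Gq signals, was also highest in perivascular-like cells, at a lower count. Its level was 52.4 and 70.0 CPM in WT and 52.1 and 45.2 CPM in Din-KO, with both Din-KO libraries below WT, a pattern met by 10.3% of genes in this class. The difference did not pass the test (-0.39, SE 0.32, edgeR adjusted p = 1.00). Against mesenchyme-like cells Rgs4 was higher by 2.49 (SE 0.38, edgeR adjusted p = 3.12e-05). Odontoblast-like cells were split by replicate, with 3.02 and 41.8 CPM in WT and 5.64 and 24.8 CPM in Din-KO. Replicate 2 was the higher in both genotypes. Much of this lay in the Bglap cluster, which held 23.3 and 80.8 CPM in WT and 66.9 and 73.3 in Din-KO. That cluster was 4.27% and 39.4% of odontoblast-like cells in WT and 4.69% and 31.4% in Din-KO. Its replicate 1 values rest on 9 cells in WT and 16 in Din-KO. Rgs4 was higher in odontoblast-like than in follicle-like cells by 1.46 (SE 0.55, edgeR adjusted p = 0.0467), where 25.8% of genes were called higher, but without WT replicate 2 the value was 0.49 (edgeR adjusted p = 0.341) and the call was lost. It was lost as well without Din-KO replicate 2 (1.40, edgeR adjusted p = 0.167).

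Rgs16, an R4 member that acts on Gi and Gq, was low and was found mostly in vessels, B-lineage cells and the follicle. Endothelium-like cells held 14.3 and 30.2 CPM in WT and 21.2 and 24.7 CPM in Din-KO, and the genotypes overlapped. Against mesenchyme-like cells it was higher in endothelium-like (2.74, SE 0.30), perivascular-like (1.91, SE 0.39) and B-like cells (2.49, SE 0.36), with edgeR adjusted p = 3.01e-08, 0.000954 and 1.92e-06; 28% of genes were called higher in B-like cells. The perivascular call was lost without Din-KO replicate 1 (1.42, edgeR adjusted p = 0.07). Among mesenchymal subtypes it was a follicle gene, at 6.22 and 8.79 CPM in WT and 7.32 and 7.06 CPM in Din-KO. Pulp-like cells held 1.64 and 0 CPM in WT and 1.16 and 1.63 in Din-KO, below every follicle value. The follicle was above the pulp by 2.54 (SE 0.42, edgeR adjusted p = 0.000725) and odontoblast-like cells were below the follicle by -4.39 (SE 0.59, edgeR adjusted p = 0.000132). Glia-like cells, 0.831% of the cells and too few for a test, held 4.33% of the Rgs16 UMIs. These were 27 UMIs, and 10 of the 14 in WT replicate 2 came from 1 cell. Over the 4 libraries macrophage-like cells held 1 Rgs16 UMI.

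Rgs2, which acts mainly on Gq and is induced quickly by many stimuli, was highest in immune cells. Monocyte or dendritic-like cells held 189 and 230 CPM in WT and 325 and 361 CPM in Din-KO, both Din-KO values above both WT values, as in 16.7% of genes. This difference had a log2 fold change of 0.68 (SE 0.27) and did not pass the test (edgeR adjusted p = 1.00). Macrophage-like cells held 155 and 407 CPM in WT and 179 and 321 in Din-KO, where replicate 2 was the higher in both genotypes. Between the genotypes the replicates went opposite ways. Against mesenchyme-like cells Rgs2 was higher in monocyte or dendritic-like (2.87), macrophage-like (2.73), B-like (2.18) and endothelium-like cells (1.31), with edgeR adjusted p from 4.53e-08 to 0.000824.

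In mesenchyme-like cells Rgs2 was at 29.9 and 41.9 CPM in WT and 42.2 and 61.8 CPM in Din-KO. The groups did not overlap, as in 11.6% of genes, and the log2 fold change was 0.52 (SE 0.30, edgeR adjusted p = 1.00). Without Din-KO replicate 2 it was 0.21. Pulp-like cells held 26.9 and 61.0 CPM in WT and 41.6 and 83.2 in Din-KO. The groups overlapped (0.52, SE 0.42, edgeR adjusted p = 1.00), though Din-KO was the higher within each replicate number. The value was 0.03 without Din-KO replicate 2 and 1.09 without WT replicate 2. Results with a replicate block are given in the section on processing. In follicle-like cells Rgs2 was at 37.6 and 28.4 CPM in WT and 43.1 and 60.3 in Din-KO (0.59, SE 0.26, edgeR adjusted p = 1.00), a pattern met by 15.9% of genes. Perivascular-like cells showed the widest gap, with 12.1 and 15.8 CPM in WT and 39.1 and 54.6 in Din-KO, as in 14.3% of genes. The log2 fold change was 1.67 (SE 0.40, edgeR adjusted p = 1.00), but the UMIs behind it were 6 and 16 in WT and 24 and 41 in Din-KO, and 18 of the 41 came from 1 cell. Genes that respond to tissue dissociation moved in the same direction in the mesenchyme, where 16 of 17 had a positive log2 fold change with a median of 0.69 and 0 were called, beside a median of -0.01 over all genes. In perivascular-like cells their median was 0.16. Their part in the Rgs2 values was not tested.

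Rgs1, known from activated B and T cells, was an immune gene here as well, but not in B-like cells. These were 5.24% of the cells and held 0.21% of the Rgs1 UMIs. Macrophage-like cells held 59.9 and 173 CPM in WT and 104 and 248 CPM in Din-KO, the higher in Din-KO within each replicate number. Replicate 2 was the higher in both genotypes and the groups overlapped (0.65, SE 0.53, edgeR adjusted p = 1.00), and the value ran from 0.036, when Din-KO replicate 2 was left out, to 1.52, when WT replicate 2 was. T or NK-like cells, too few for a test, held 294 and 339 CPM in WT from 13 and 17 cells and 232 and 975 CPM in Din-KO from 61 and 28 cells. Against mesenchyme-like cells Rgs1 was higher in macrophage-like cells by 7.93 (SE 0.59, edgeR adjusted p = 1.24e-10) and in monocyte or dendritic-like cells by 7.07 (SE 0.62, edgeR adjusted p = 2.77e-09); 30.4% and 26.8% of genes were called higher. In endothelium-like cells it was at 3.73 and 0.702 CPM in WT and 8.84 and 26.5 in Din-KO, where all 44 UMIs of Din-KO replicate 2 came from 1 cell. Epithelium-like and glia-like cells held 0 UMIs.

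Rgs10, a small RGS protein known for restraining microglia and macrophages, set macrophage-like cells apart from all other classes tested. They held 575 and 424 CPM in WT and 472 and 343 CPM in Din-KO, overlapping between genotypes (-0.23, SE 0.34, edgeR adjusted p = 1.00). Within each replicate number the Din-KO library was the lower. Among the classes tested, monocyte or dendritic-like cells followed at 168 and 114 CPM in WT and 179 and 172 in Din-KO, apart from the macrophage range. Of the cells not tested, erythroid-like cells were 0.681% of the cells and held 2.55% of the Rgs10 UMIs. Of those 267 UMIs, 236 were in WT replicate 1. An unnamed cluster led by Tpsab1 and Acp5 was 0.495% of the cells and held 2.43%. Against mesenchyme-like cells the log2 fold change was 5.22 (SE 0.34, edgeR adjusted p = 2e-12) in macrophage-like and 3.65 (SE 0.33, edgeR adjusted p = 1.23e-09) in monocyte or dendritic-like cells. Outside the immune cells Rgs10 also separated follicle from pulp. Follicle-like cells held 34.6 and 21.3 CPM in WT and 46.4 and 33.1 in Din-KO, all above the pulp at 7.90 and 6.46 in WT and 6.0 and 5.98 in Din-KO. The follicle was higher by 2.47 (SE 0.24, edgeR adjusted p = 1.56e-05), where 20.9% of genes were called higher. All 7 macrophage markers were detected in follicle-like cells, at 29.4 to 399 CPM in sum against 17263 to 21146 in macrophage-like cells, and without cells with at least 3 of their UMIs, left out after the data had been seen, the value was 2.51. Odontoblast-like cells were below the follicle by -2.42 (SE 0.25, edgeR adjusted p = 1.73e-05). Perivascular-like cells held 32.3 and 48.3 CPM in WT and 52.1 and 81.2 in Din-KO, above mesenchyme-like cells by 1.87 (SE 0.35, edgeR adjusted p = 0.000353). The Din-KO values lay above both WT values, as in 14.3% of genes, without passing the test (0.66, SE 0.36, edgeR adjusted p = 1.00). Of the 61 UMIs of Din-KO replicate 2, 13 came from 1 cell.

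Rgs19, also called GAIP and active on Gi, was the most even member. Its level was 84.2 and 68.2 CPM in WT and 89.1 and 81.1 in Din-KO monocyte or dendritic-like cells. Macrophage-like cells held 73.7 and 75.5 CPM in WT and 67.6 and 61.1 in Din-KO, both Din-KO values below WT as in 16.3% of genes (-0.14, SE 0.26, edgeR adjusted p = 1.00). All mesenchyme-like cells held 21.6 and 25.6 CPM in WT and 21.5 and 27.9 in Din-KO, and epithelium-like cells were lowest with a mean of 12.8 ± 4.57 CPM (SD, n = 4 libraries). Against mesenchyme-like cells it was higher in monocyte or dendritic-like (1.94), macrophage-like (1.73) and B-like cells (1.49), with edgeR adjusted p from 8.17e-10 to 8.35e-08, and lower in epithelium-like cells (-0.61, SE 0.17, edgeR adjusted p = 0.00504). Follicle-like cells, at 29.0 to 32.4 CPM, were above pulp-like cells, at 18.8 to 28.3 CPM, by 0.54 (SE 0.13, edgeR adjusted p = 0.00729), a call that was lost without Din-KO replicate 1 (0.53, edgeR adjusted p = 0.0534).

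Rgs17, a Gi and Gz regulator known from the brain, had 14 UMIs in 12 cells and was too low to test in any class.

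Over the 10 classes with enough cells, the Din-KO comparison was tested for 63 pairs of member and class, and edgeR called 0 of them. DESeq2 called 0 as well, and 5 pairs had an unadjusted edgeR p under 0.05. These 5 were Rgs2 in perivascular-like and in monocyte or dendritic-like cells, Rgs1 in endothelium-like, Rgs5 in odontoblast-like and Rgs10 in epithelium-like cells. Of all genes, 1.85%, 3.25%, 2.86%, 0.844% and 1.25% were under that p in these classes, in the same order. The Rgs5 UMIs in odontoblast-like cells were 13 and 15 in WT and 71 and 24 in Din-KO. Of these, 10 and 1 in WT and 35 and 12 in Din-KO came from 1 cell per library. Among all genes, 0.0146% were called higher in pulp-like, 0.0535% in endothelium-like and 0.073% in macrophage-like cells, and 0 in the other classes. Members with at least 20 UMIs in a class were also counted by whether both Din-KO libraries lay below or above both WT libraries. In mesenchyme-like cells 1 of 8 lay below (6.42% of all genes) and 3 above (11.6%). In pulp-like cells 2 of 7 lay below (12.4%) and 0 above (10.4%), and in follicle-like cells 0 of 8 lay below (8.47%) and 3 above (15.9%). In odontoblast-like cells 1 of 6 lay below (7.31%) and 1 above (11.7%). In the vessels, 1 of 7 lay below (10.3%) and 2 above (14.3%) in perivascular-like cells, and 1 of 8 below (13.6%) and 2 above (11.7%) in endothelium-like cells. In epithelium-like cells 0 of 6 lay below (3.32%) and 2 above (17.8%). Of the immune classes, macrophage-like cells had 1 of 6 below (16.3%) and 0 above (9.1%), monocyte or dendritic-like cells 0 of 5 below (13.1%) and 3 above (16.7%), and B-like cells 0 of 5 below (12.7%) and 0 above (9.74%). In mesenchyme-like cells the 8 members tested had a median log2 fold change of 0.08, beside -0.01 over all genes. Of the other RGS genes 8 of 14 were tested there, of the G-alpha subunits 12 of 13, of the G-beta and G-gamma subunits 14 of 15, of the receptor kinases, arrestins and related proteins 12 of 12, and of the receptors coupled to Gi or Gq 21 of 26. edgeR called 0 in each of these lists, with medians between -0.04 and 0.19; over all genes in mesenchyme-like cells 154 had an unadjusted p under 0.05 and DESeq2 called 18.

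**Figure D5:**
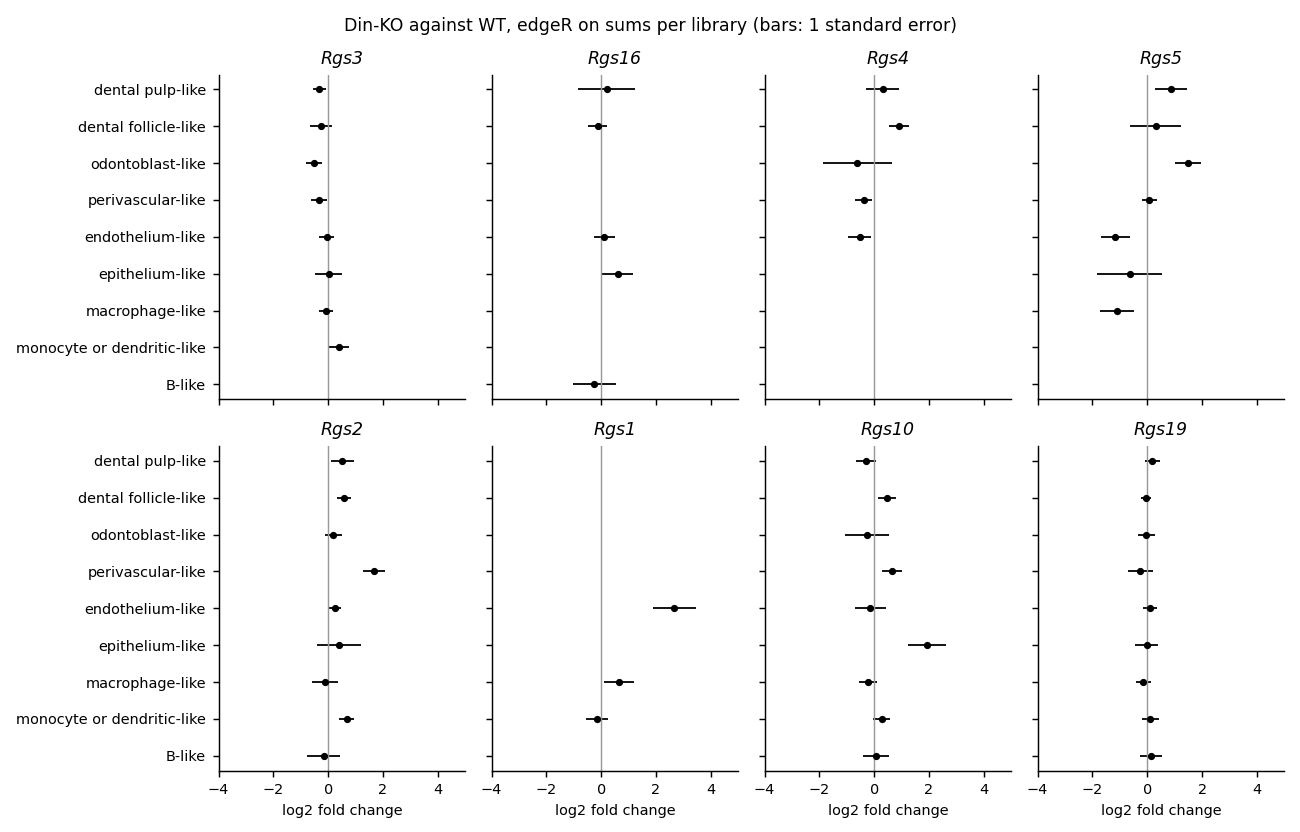
Log2 fold change of Din-KO against WT for 8 members in 9 cell classes, from edgeR on UMIs summed per library; bars are 1 standard error, and a class in which a gene was too low to test has no point. None of the points passed the adjusted threshold, including Rgs2 in perivascular-like cells (1.67).

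Across 44 sums of class and library, genes were ranked by the Pearson correlation of log2(CPM + 1) with each member. The points share libraries and cell types, so the values only describe. Rgs3 was most like Ankrd29, Mest and Hey1 (0.86 each). Rgs5 was most like Olfr558, Casq2 and Ndufa4l2 (0.91 each), and Rgs4 was close to Foxs1 and Itga10 (0.86 each). Rgs1 was close to Ccl4 (0.89) and Gbp8 (0.87). Rgs10 was most like Ctsc (0.85), Cx3cr1 (0.83) and Commd8 (0.81). Rgs2 was most like Nfkbid (0.89), Arhgap25 (0.85) and Themis2 (0.83). Rgs16 was most like Ablim1 (0.90), Tbxa2r (0.84) and Ehd2 (0.82), and Rgs19 most like Limd2 (0.91), Cyba (0.90) and Bcl10 (0.86).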

How the data were processed

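Per the paper's methods, cells were barcoded with 10x Genomics 3′ v3.1 chemistry, and the authors counted UMIs per gene with Cell Ranger (6.0.2 in the file header) on mm10/GRCm38. The deposited values are raw UMI counts; they count 3′ ends, so isoforms are not separated. Cells with under 1000 genes, over 10% mitochondrial or over 3% hemoglobin UMIs were left out, as the study did. The 4 libraries were integrated and clustered in Seurat 5.3.0 (resolution 1, 2000 variable genes less 5 RGS genes), and clusters were named from marker lists; 1 mixed cluster was divided after the data had been seen. Clustering used the other genes of these cells, so class contrasts are tests only for the members. Scrublet (scanpy 1.11.5) marked 99 cells (0.875%), which were kept; leaving out the top 5% of scores was an alternative. UMIs were summed per library and class (at least 20 cells in every library) and tested with edgeR 4.0.16 (quasi-likelihood test, TMM, filterByExpr, Benjamini-Hochberg over all genes, threshold 0.05). DESeq2 1.42.0, other scalings and filters, a replicate block, no integration, a resolution of 0.5, thinning to 2000 UMIs and leaving out each library were tried. The tests were checked on simulated data with larger changes than those of Rgs3 between genotypes and with no replicate effect. That check does not cover small differences. All 9 members were named in every comparison, and of other genes the 3 most like each member, of which 2 genes are not reported here. The members and lists were chosen with earlier results of these data known.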

Additional observations from a re-analysis of the deposited data

Results flagged for a closer look

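For 3 of 8 members, the Din-KO libraries were both under the WT range in some classes and both over it in others. The same held for 23.8% of the 14596 genes with at least 20 UMIs in 2 or more of the 9 classes compared, and the differences between these classes were not tested. As the log2 ratio of the mean CPM in Din-KO to that in WT, Rgs3 was -0.32 in dental pulp-like and -0.50 in odontoblast-like cells but 0.42 in monocyte or dendritic-like cells. In the last, the UMIs were 14 and 10 in WT and 36 and 24 in Din-KO. Rgs4 was -0.58 in endothelium-like and -0.33 in perivascular-like cells but 0.95 in dental follicle-like cells, where the UMIs were 26 and 30 in WT and 37 and 59 in Din-KO. Of the 15 Rgs4 UMIs in endothelium-like cells of Din-KO replicate 2, 9 came from 1 cell. Rgs10 was -0.26 in dental pulp-like cells but 1.92 in epithelium-like, 0.32 in monocyte or dendritic-like and 0.73 in perivascular-like cells. In dental pulp-like cells the replicate 2 values rest on 18 UMIs in WT and 11 in Din-KO. Of the 98 Rgs10 UMIs in epithelium-like cells of Din-KO replicate 2, 38 came from 1 cell. For Rgs10 the difference of the effects in follicle-like and pulp-like cells was tested, and it was 0.79 (SE 0.28, edgeR adjusted p = 1.00).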

How the results depend on the processing

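The count of members called between Din-KO and WT was 0 in each of the 10 classes and stayed 0 under all alternatives run but 4. With a replicate block it was 1 in dental pulp-like cells (Rgs2, 0.55, edgeR adjusted p = 0.0156) and 1 in perivascular-like cells (Rgs2, 1.70, edgeR adjusted p = 0.00747). Without a filter beyond 1 UMI it was 1 in dental follicle-like (Rgs1) and 2 in endothelium-like cells (Rgs1 and Rgs5). The Rgs1 UMIs in dental follicle-like cells were 2 in WT, all in replicate 2, and 7 and 23 in Din-KO. Of the 23, 11 came from 1 cell. The share of all genes called in these 4 classes under these alternatives is not given here. The labels number the replicates, and the paired deviations correlated at 0.789, but 2 pairs do not show that the numbers pair the libraries; the block raised the count over all genes in mesenchyme-like cells from 0 to 23 lower and 108 higher. Between odontoblast-like and dental pulp-like cells, 1 member was called, against 3 without the filter, 2 without integration, 2 without cells with macrophage UMIs and 1 to 2 when a library was left out. In the main setting 24.7% of all genes tested were called lower there and 24.8% higher. The class with the highest mean was the same for 5 of 8 members without integration.

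Leaving out 1 library turned some Din-KO differences that had not passed the test. The range was -0.71 to 0.44 for Rgs3 in dental follicle-like cells and -0.48 to 0.84 for its follicle and pulp difference, -0.17 to 0.27 for Rgs5 in perivascular-like cells (-0.16 without integration), -0.58 to 0.068 for Rgs10 and -0.32 to 0.0078 for Rgs19 in macrophage-like cells, -0.35 to 0.65 for Rgs16 in endothelium-like cells and -0.34 to 0.14 for Rgs16 in dental follicle-like cells (0.46 with only Xist cells). The causes were not tested. Among class contrasts that were called, 15 values were no longer called under an alternative and 0 turned their direction. Comparisons in glia-like, neutrophil-like and T or NK-like cells were not run, because a library held under 20 such cells.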
